A study of Mus musculus with 1298 samples.

Results

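The genes described here are 9 transcription factors of the somite and the dermomyotome, Meox1, Meox2, Tcf15, Foxc1, Foxc2, En1, Lbx1, Foxp1 and Alx4. They were taken by name, as the rows with these gene symbols, from tables of cells that descend from Pax7-expressing progenitors of the mouse embryo. All 9 had a row among the 17634 genes of the 10x table and the 22894 genes of the Smart-seq2 table, and 7 of the 9 had one among the 22938 genes of the bulk table. They were followed across progenitor, muscle, dermal and adipose cells by embryonic day.

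Somites are blocks of paraxial mesoderm that form in pairs beside the neural tube. The ventral part of each somite, the sclerotome, yields cartilage and bone, and the dorsal epithelium, the dermomyotome, yields skeletal muscle, the dermis of the back and brown fat. Meox1 and Meox2 are homeobox factors that act together in somite patterning, Tcf15 (Paraxis) is a basic helix-loop-helix factor that somites need to become epithelial, and Foxc1 and Foxc2 are forkhead factors of the presomitic and paraxial mesoderm. En1 marks the central dermomyotome and the dermis below it, Lbx1 marks muscle precursors that migrate to the limb and, separately, dorsal spinal cord neurons, Alx4 is an aristaless-related homeobox factor of mesenchyme, and Foxp1 is a widely used forkhead repressor.

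The embryos carried Pax7CreER and the R26R-stop-EYFP reporter, and the pregnant mice were given tamoxifen once, at E9.5, so that Cre driven from the Pax7 locus switched on YFP in Pax7-expressing cells and all of their descendants. YFP+ cells were sorted from pooled embryos of 3 stages, E12.5 and, later, E14.5 or E16.5, and sequenced with the 10x 3' protocol, which counts molecules by unique molecular identifiers (UMIs), and with Smart-seq2, which reads whole transcripts cell by cell. There was 1 10x library per day, and the Smart-seq2 cells came from 7, 4 and 4 plates in order of day. All groups share the genotype, the tamoxifen dose and the YFP gate, and what is labelled depends on which cells used Pax7 when the drug acted. Because no table paired cells with the names used by the study, cells were clustered again, and clusters were named from marker genes. The 9 genes were left out of the clustering, and so were the other listed genes unless they served as markers, as Pax7, Twist2 and Scx did.

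Of 3916 cells, 3852 passed the quality limits, 2921 from 10x and 931 from Smart-seq2. Early progenitor-like cells (EP-like, E12.5) made up 10.5% of these cells and late progenitor-like cells (LP-like, E14.5 and E16.5) 15.3%, and both were named for the markers of Pdgfra-expressing mesenchymal progenitors. The cluster of EP-like cells (cluster 1) had a mean progenitor score of -0.14 and was named because Pdgfra and 3 other markers were detected in most of its Smart-seq2 cells. It scored higher for dermal markers, 0.37, and for cartilage markers, 0.66, and its first 10 genes held no progenitor marker. The name EP-like therefore rests on detection and not on the score. The 2 main clusters of LP-like cells scored 1.45 (cluster 5) and 1.53 (cluster 6), but cluster 5 scored higher, 2.36, for tendon markers, and its first 10 genes were led by Tnmd and held Thbs4. Muscle cells were divided into early myogenic cells with Myf5, Myod1 and Pax7 (EM-like, 17.99% of cells) and late myogenic cells with Myog and sarcomere genes (LM-like, 6.15%). The remaining classes were dermal fibroblast-like cells (DF-like, 15.6%, E14.5 and E16.5), brown adipocyte-like cells (BA-like, 4.52%), pericyte-like cells (PE-like, 1.51%) and neuron-like cells (N-like, 18.7%), while 5.97% of cells were left unnamed. A further 3.79% of cells, cluster 11, carried the progenitor markers but were led by Ngfr, Igfbp3 and Aldh1a3 with the tendon gene Thbs4 among their first 10 genes, and were kept apart.

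The classes were described by markers before any member was compared. A count of YFP was required of every kept cell, and Pdgfra was among the markers that named the progenitors. Neither is therefore an independent check of the class names. Pdgfra ran from 59.6 to 378.8 CPM (counts scaled to the total count of the summed cells) in the EP-like and LP-like sums. In EM-like cells Pdgfra was at 6.52, 0 and 3.66 CPM by day in 10x, but at 46.1 CPM in the E12.5 Smart-seq2 cells, where 22 of 48 cells had a count. EM-like cells of E12.5 came mostly from cluster 3 and those of E14.5 mostly from cluster 4 on both platforms, but those of E16.5 were 95.4% from cluster 3 in 10x and 100% from cluster 4 in Smart-seq2, so the comparison of muscle by day sets different clusters against each other on each platform. LP-like cells of E14.5 came mostly from cluster 5, and those of E16.5 were 95.8% from cluster 6 in 10x and 62.9% from cluster 5 in Smart-seq2. Cluster 3 was led by Moxd1 and Parm1, and its first 10 genes held Myf5 beside the Schwann cell marker Erbb3 and the pericyte marker Notch3, while the defining Schwann marker Sox10 was at 0 on both platforms. In the 10x EM-like cells of E16.5 the 5 keratinocyte markers were all detected and summed to 76.8 CPM, against 6.52 and 1.67 CPM at E12.5 and E14.5. At clustering resolution 1.2 the 10x cells of this kind fell into an unnamed cluster that scored 1.82 for keratinocyte and 0.77 for EM-like markers, so the values of 10x EM-like cells at E16.5 rest on cells whose class depends on that setting. The 4 tendon markers (Tnmd, Scx, Mkx, Thbs4) summed to between 268.3 and 949 CPM in LP-like cells, where EP-like sums had 47.4 and 63.9 CPM and DF-like sums 13.1 to 38.5 CPM. Their part in the results on LP-like cells was not tested. Leaving out cluster 5, the tendon-rich cluster, also removes the LP-like sums of E14.5 and keeps only those of E16.5, so tendon cells and day change together in the values given without it.

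Median depth per kept 10x cell was 2185, 5930 and 1607.5 UMIs in order of day, and 3 cell barcodes occurred in more than 1 of the 10x libraries. Smart-seq2 cells had medians of 393416, 769833 and 829590 estimated counts. In Smart-seq2 each day was sequenced in its own batches, so day and batch cannot be told apart there. Levels below are CPM of the summed counts of all cells of a class, day and platform. For 10x they carry an exact 95% Poisson interval, which covers counting error only, and for Smart-seq2 the range over plates with at least 8 cells of the class. A gene with no UMI is given the level that 3 UMIs would have as its upper limit. Tests compared such sums, with platform and day together forming a pool, across 4 to 6 pools, so that p-values measure the spread between 1 sum per pool and not between single embryos.

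Meox1 lies on chr11:101877510-101894374 (minus strand), Meox2 on chr12:37108540-37179534 (plus), Tcf15 on chr2:152143561-152149097 (plus), Foxc1 on chr13:31806633-31812476 (plus), Foxc2 on chr8:121116171-121118895 (plus), En1 on chr1:120602418-120607992 (plus), Lbx1 on chr19:45232684-45235812 (minus), Foxp1 on chr6:98925338-99522721 (minus) and Alx4 on chr2:93642384-93681339 (plus), all in GRCm38. An antisense gene overlaps Meox1 (Gm11551) and Alx4 (Ext2), while genes on the same strand overlap Meox2 (Gm48617), Foxc2 (Gm20388) and Foxp1 (4 genes), so reads of these genes may in part belong to the neighbour. The bases before the start of Meox2 and En1 are shown because, of the members with a promoter entry, Meox2 had the largest and En1 the smallest difference in the dermal comparison below. They come from RefSeq on GRCm38.p6, 5' to 3', with each match to the E-box CANNTG, the letters bound by helix-loop-helix factors such as Twist2 and Tcf15, in capitals.

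Meox2, chr12:37108290-37108539, plus strand: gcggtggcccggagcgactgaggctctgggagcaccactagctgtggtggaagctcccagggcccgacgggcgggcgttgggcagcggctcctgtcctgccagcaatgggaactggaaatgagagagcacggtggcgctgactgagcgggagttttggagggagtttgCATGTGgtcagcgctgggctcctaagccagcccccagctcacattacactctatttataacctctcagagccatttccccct
En1, chr1:120602237-120602417, plus strand: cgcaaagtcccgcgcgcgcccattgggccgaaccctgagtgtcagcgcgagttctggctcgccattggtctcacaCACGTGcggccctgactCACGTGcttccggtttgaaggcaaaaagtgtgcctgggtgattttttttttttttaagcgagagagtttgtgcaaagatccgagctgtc

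The Meox2 window held 1 match and the En1 window 2. A window of the same length held at least 1 CANNTG in 66.2% of 32851 promoters for the Meox2 length and in 55.7% for the shorter En1 length, so a match is common, and neither window held TAATTA or CAGCTG. The search is a description of the letters only.

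**Figure D1:**
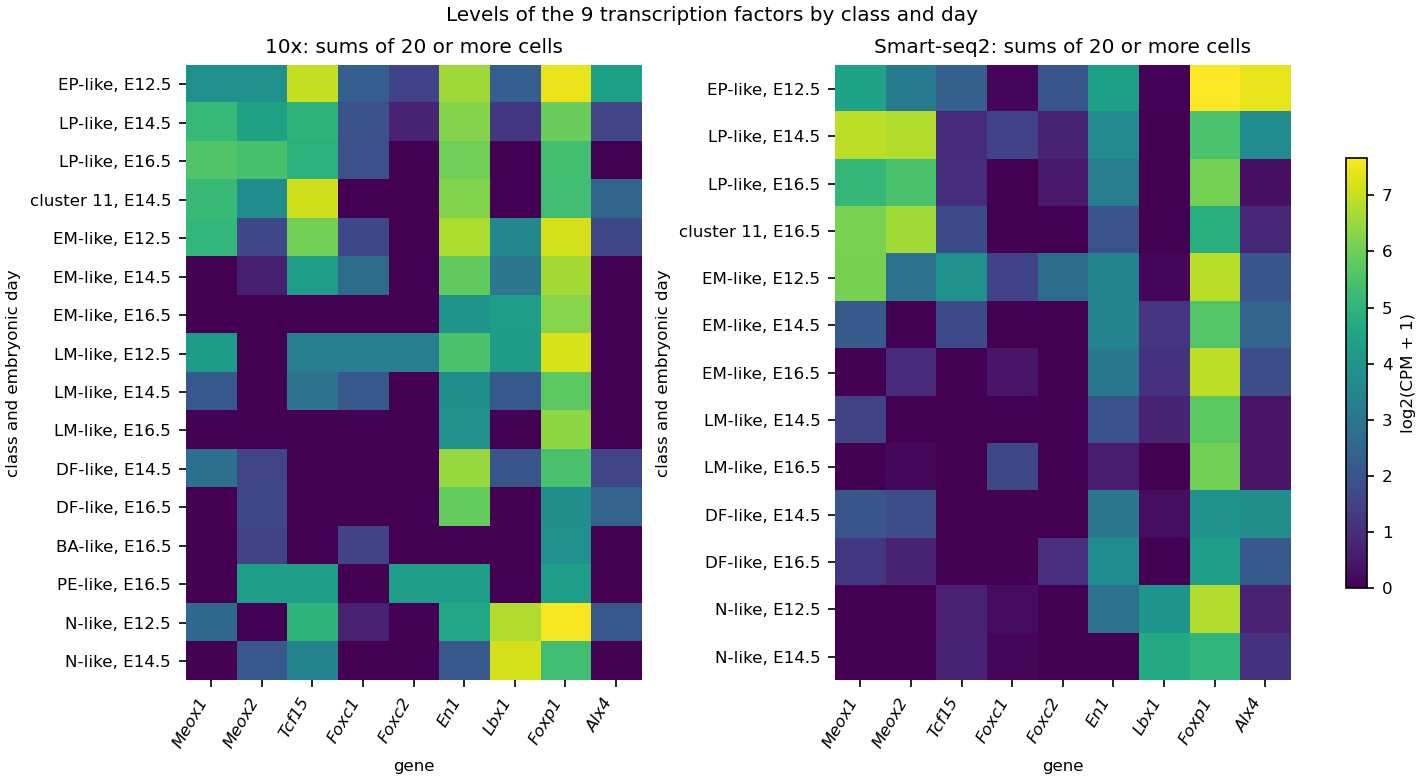
Heat maps of the level of each of the 9 genes, as log2 of CPM plus 1 with brighter colours for higher levels, in the sums of at least 20 cells of a class and day, for 10x and Smart-seq2. Among the sums drawn, Meox1 and Meox2 were brightest in LP-like cells on both platforms, Lbx1 in N-like cells and Alx4 in EP-like cells, while the smaller PE-like sums with more Meox2 are not drawn.

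Meox1 was present in both progenitor and early muscle cells at E12.5, stayed in the progenitors and was near or at 0 in muscle from E14.5. In the 10x sums of EM-like cells Meox1 was at 32.6 CPM (18.2 to 53.8, 15 UMIs) at E12.5, and no UMI was found in the EM-like cells of E14.5 or E16.5. These zeros allow up to 1.67 and 11.0 CPM. Taking the lower end of the interval at E12.5 over these limits, Meox1 at E12.5 was at least 10.9-fold higher than at E14.5 and at least 1.66-fold higher than at E16.5, and folds called at least that large below are formed in the same way. Smart-seq2 gave 66.9 CPM at E12.5, 3.40 CPM at E14.5 and 0 CPM at E16.5, and 73.7% of the E14.5 counts came from 1 cell.

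The plates of E12.5 EM-like cells ran from 44.1 through a median of 124.4 to 193.1 CPM of Meox1 (4 plates), all above the 0 to 6.66 CPM of the 3 plates of E14.5 and the 0 CPM of all 4 plates of E16.5. Meox1 was counted in 33 of 48 E12.5 EM-like cells (68.8%, exact interval 53.7 to 81.3%), in 3 of 54 at E14.5 and in 0 of 59 at E16.5, which allows up to 5.08%. After each cell was thinned to 100000 counts the shares were 70.5%, 3.70% and 0%. Depth ran the other way, with medians of 226893, 735379 and 880601 counts, and Smart-seq2 N-like cells, which do not come from the paraxial mesoderm, had Meox1 in no cell at either day, at median depths of 1176040 and 695075 counts, which allows up to 3.53% and 2.44% of them. In 10x, 8 N-like cells had a UMI of Meox1 (1.59%, 0.688 to 3.10%), at 4.29 CPM (1.85 to 8.45).

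In the test of EM-like sums by day, Meox1 was lower at E14.5 and E16.5 than at E12.5 by a log2 fold change of -5.53 ± 1.13 (SE, 4 sums against 2), with an adjusted p of 0.00910 by the edgeR quasi-likelihood test, Benjamini-Hochberg adjusted. It was the only one of the 8 tested members that passed, and 3.37% of 12478 genes passed, 1.33% being higher at E12.5 and 2.04% at the later days. The call held in 8 of 16 alternatives. It was lost with DESeq2 (adjusted p = 0.424 by DESeq2), at clustering resolution 1.2 (adjusted p = 0.129 by edgeR), where the 10x sum of E16.5 is missing, within each platform alone and without any single one of the 3 10x pools or the E12.5 Smart-seq2 pool, while the direction held in 16 of 16.

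At E12.5, Smart-seq2 EM-like cells with Meox1 were set beside all EM-like cells, which include them, and no test was made. Of the 33 cells with Meox1, 22 also had Pax7, 20 also had Myod1 and 18 also had Pdgfra, where Pax7 was counted in 34 of all 48 cells, Myod1 in 29 and Pdgfra in 22. The progenitor marker Pdgfra was thus more frequent among cells with Meox1, Pax7 slightly less frequent and Myod1 about as frequent. The 10 progenitor markers summed to 752 CPM in EM-like cells of E12.5 in 10x, below the 1715 and 3034 CPM of EM-like cells at E14.5 and E16.5. In Smart-seq2 they summed to 1728 CPM against 2466 and 2143 CPM later. Pdgfra, which is on that list, went the other way in Smart-seq2 EM-like cells, at 46.1, 0.128 and 0.0597 CPM by day. In 10x Pdgfra was at 6.52, 0 and 3.66 CPM. The 5 Schwann and neural crest markers summed to 91.3 CPM at E12.5 in 10x, with Sox10 and Foxd3 among those at 0, and to 22.3 and 10.97 CPM later, and the 3 of them that Smart-seq2 lists to 267.8, 63.7 and 17.98 CPM by day. The part of these lists in the level of Meox1 was not tested.

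**Figure D2:**
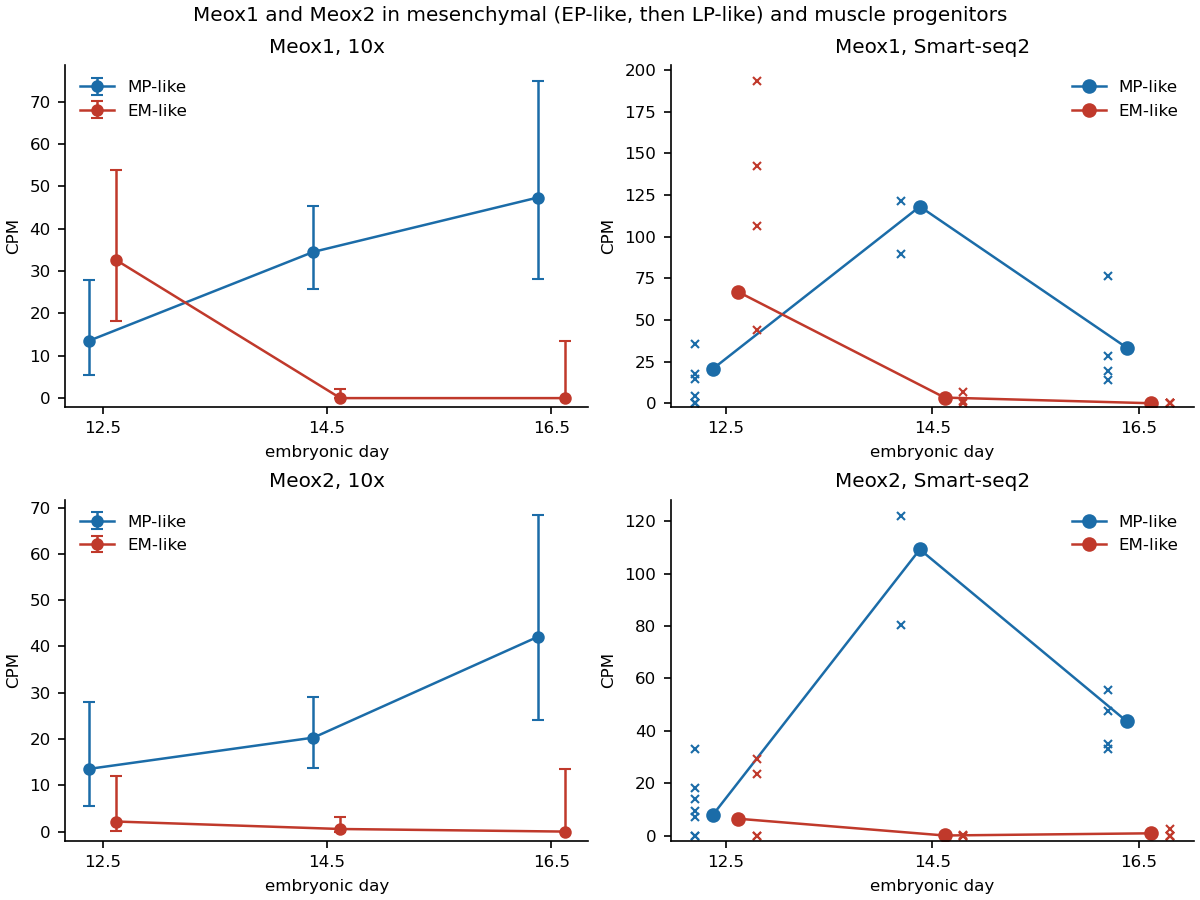
Meox1 and Meox2 CPM by day in mesenchymal progenitor-like cells (EP-like at E12.5, LP-like later) and in EM-like cells, with exact 95% Poisson bars for the 10x sums, circles for Smart-seq2 sums and crosses for Smart-seq2 plates. Meox1 in EM-like cells dropped from 32.6 and 66.9 CPM at E12.5 to 0 CPM on both platforms at E16.5, while Meox2 was at or below 6.44 CPM in the EM-like sums of every day.

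In the progenitors Meox1 went the other way. EP-like cells had 13.6 CPM (5.45 to 27.9) in 10x and 20.8 CPM in Smart-seq2, where the 7 plates ran from 0 through 4.50 to 35.3 CPM. LP-like cells had 34.5 CPM (25.7 to 45.4) at E14.5 and 47.3 CPM (28.1 to 74.8) at E16.5 in 10x. Smart-seq2 gave 118.03 CPM at E14.5, with plates at 89.5 and 121.4, and 33.4 CPM at E16.5, with 4 plates from 13.7 to 76.4. The order of the 2 later days thus differed between the platforms, with overlapping intervals in 10x and plates that did not overlap in Smart-seq2.

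Meox2 was a progenitor gene at all 3 days and was near the limit of detection in muscle. The 10x sums held 13.6 CPM (5.45 to 27.9) in EP-like cells, 20.3 CPM (13.7 to 28.99) in LP-like cells of E14.5 and 42.1 CPM (24.1 to 68.3) in those of E16.5, against 1, 1 and 0 UMIs in EM-like cells of the 3 days. In Smart-seq2 Meox2 was at 8.02, 109.2 and 43.7 CPM in the progenitors and at 6.44, 0.0365 and 0.875 CPM in EM-like cells. Only at E12.5 did the plates of both classes overlap, from 0 to 33.2 CPM in EP-like and from 0 to 29.3 CPM in EM-like cells. The plate medians of that day were 9.20 CPM in EP-like and 11.8 CPM in EM-like cells.

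Progenitors of E14.5 and E16.5 were set against those of E12.5 (LP-like against EP-like, 4 sums against 2). Meox1 was higher in LP-like cells by 2.07 ± 0.52 on the log2 scale (adjusted p = 0.0499 by the edgeR quasi-likelihood test, Benjamini-Hochberg adjusted), and the sums did not overlap, at 34.2 to 121.5 against 14.2 to 21.5 CPM over the genes shared by both platforms. Meox2 was higher by 2.81 ± 0.66 (adjusted p = 0.0368, same test), with 21.3 to 112.4 against 8.32 to 14.2 CPM. With Tcf15 and Alx4, which were lower and are given below, 4 of 8 tested members passed, against 3.90% of 13910 genes, 3.47% being higher and 0.439% lower in LP-like cells. Of the genes that passed, 88.8% were higher in LP-like cells, or 74.9% with DESeq2. These calls rest on single pools, since Meox1 passed in 8 of 18 alternatives and Meox2 in 11 of 18, and both were lost without either of the E12.5 pools, the 10x E14.5 pool or the 10x E16.5 pool, the direction holding in all.

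**Figure D3:**
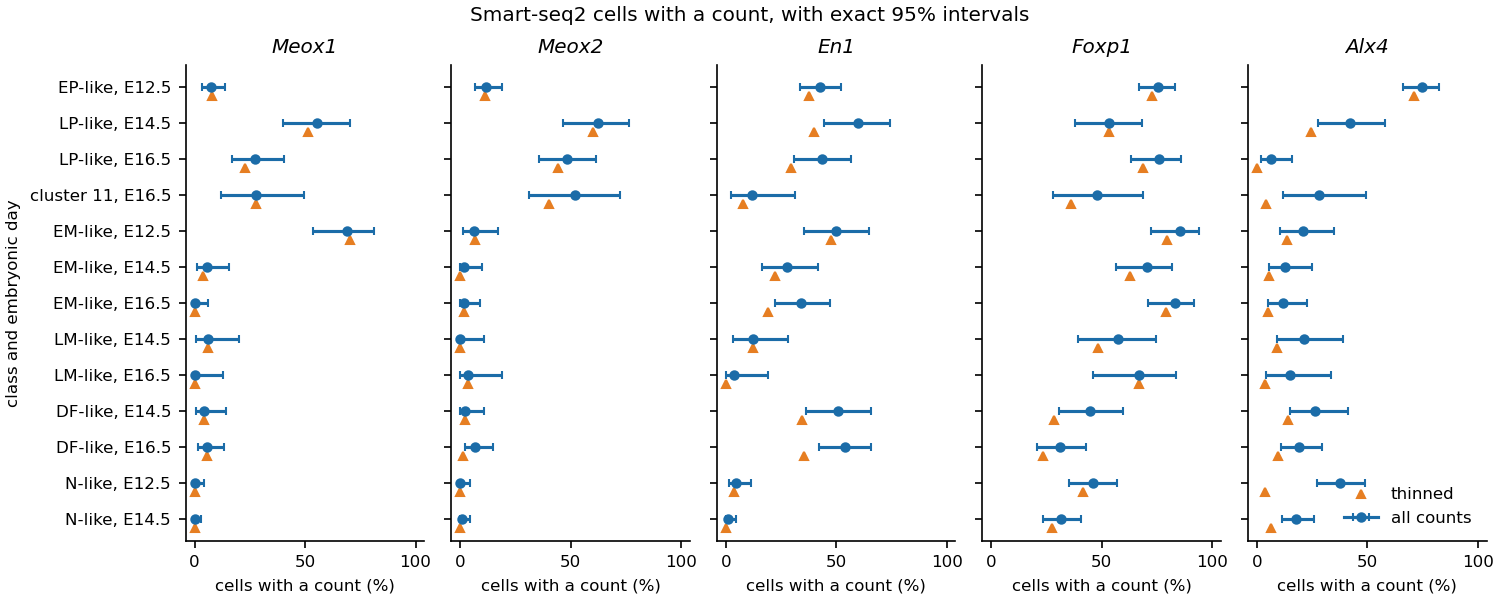
Percent of Smart-seq2 cells with a count of Meox1, Meox2, En1, Foxp1 or Alx4 in each class and day, with exact 95% intervals, and the same share after each cell was thinned to 100000 counts. Meox1 was counted in 68.8% of EM-like cells at E12.5 and 0% at E16.5, and Alx4 in 74.8% of EP-like cells.

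Muscle and progenitors were compared on each day (EM-like against mesenchymal progenitor-like, 6 pools). Of 8 tested members, 2 passed, Meox2 lower and Lbx1 higher in EM-like cells, where 25.7% of 12035 genes passed, 10.8% being higher in EM-like and 14.9% in the progenitors, so members passed no more often than genes at large. Meox2 differed by -5.33 ± 1.48 on the log2 scale (adjusted p = 0.0250 by the edgeR quasi-likelihood test, Benjamini-Hochberg adjusted), with a mean of 1.73 CPM in EM-like and 40.8 CPM in progenitor sums, and was lower in EM-like cells in 6 of 6 pools. The call was lost in 6 of 17 alternatives, among them the fit without cluster 5 and so without progenitors of E14.5 (adjusted p = 0.176 by edgeR), and the direction held in all 17. Meox1 did not pass over all days (-3.66 ± 1.83, adjusted p = 0.170 by edgeR), being higher in EM-like cells in the 2 pools of E12.5 and lower in the 4 later pools, but it passed with DESeq2 (adjusted p = 0.00985) and without the E12.5 Smart-seq2 pool (adjusted p = 0.0153 by edgeR).

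That change of direction was tested as the difference between EM-like and progenitor-like cells at E14.5 and E16.5 against the same difference at E12.5. Meox1 moved by -8.42 ± 1.197 on the log2 scale (adjusted p = 0.00161 by the edgeR quasi-likelihood test, Benjamini-Hochberg adjusted) and Meox2 by -6.88 ± 1.46 (adjusted p = 0.0195, same test). Both rest on sums at or near 0, so the fitted sizes are not bounds. On 10x counts Meox1 in LP-like cells was at least 15.4-fold higher than in EM-like cells at E14.5 and at least 2.56-fold higher at E16.5, while at E12.5 it was at 32.6 CPM in EM-like and 13.6 CPM in EP-like cells with overlapping intervals. In this comparison 2 of 9 members and 3.63% of 13923 genes passed, 2.41% with the sign of Meox1 and 1.22% with the other. The Meox1 call was lost without the E12.5 Smart-seq2 pool (adjusted p = 0.308 by edgeR) and on Smart-seq2 sums alone (0.368), and that of Meox2 in 5 of 10 alternatives. Of the other members, Alx4 (5.64 ± 1.61, adjusted p = 0.0773 by edgeR) and Foxp1 (1.12 ± 0.34, 0.0873) did not pass and passed in 3 of 9 and 1 of 10 alternatives.

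In LM-like cells Meox1 was at 17.4 CPM (2 UMIs), 3.31 CPM (2 UMIs) and 0 CPM by day in 10x, and Meox2 had no UMI in 35, 89 and 39 cells. Neither gene had enough counts to be tested between LM-like and EM-like cells.

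Dermal cells and late progenitors shared En1 and differed in Meox1, Meox2, Tcf15 and Foxp1. Meox1 in DF-like cells was at 6.04 CPM (2.22 to 13.2) at E14.5 in 10x and had no UMI at E16.5, which allows up to 6.55 CPM and puts LP-like cells of that day at least 4.28-fold higher. In Smart-seq2 it was at 3.04 and 1.35 CPM, with plates from 0 to 3.93 CPM, all below the lowest LP-like plate at 13.7 CPM. Meox2 in DF-like cells was at 2.01 CPM (2 UMIs) and 2.18 CPM (1 UMI) in 10x, and at 2.49 and 0.652 CPM in Smart-seq2, where all of the first value came from 1 cell. No DF-like sum or plate of either gene reached an LP-like one of the same platform.

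Over the 4 pools that hold both classes, Meox1 differed between DF-like and LP-like sums by -4.64 ± 0.45 on the log2 scale (adjusted p = 5.3e-05 by the edgeR quasi-likelihood test, Benjamini-Hochberg adjusted) and Meox2 by -5.48 ± 0.43 (adjusted p = 1.1e-05, same test), both lower in DF-like cells in 4 of 4 pools. Both passed in 16 of 16 alternatives. With the tendon-rich cluster 5 left out, which leaves the 2 pools of E16.5, the differences were -5.72 for Meox1 and -6.12 for Meox2. In all 4 of 7 tested members passed, each lower in DF-like cells, against 11.7% of 12945 genes, 6.36% being lower and 5.34% higher in DF-like cells. The median of the 7 tested members, -2.21 on the log2 scale beside -0.03 for all genes tested, is the value of Foxc2. Foxc2 did not pass (adjusted p = 0.632 by edgeR) and had 1 UMI in 10x LP-like cells, so that median says little about the members together.

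**Figure D4:**
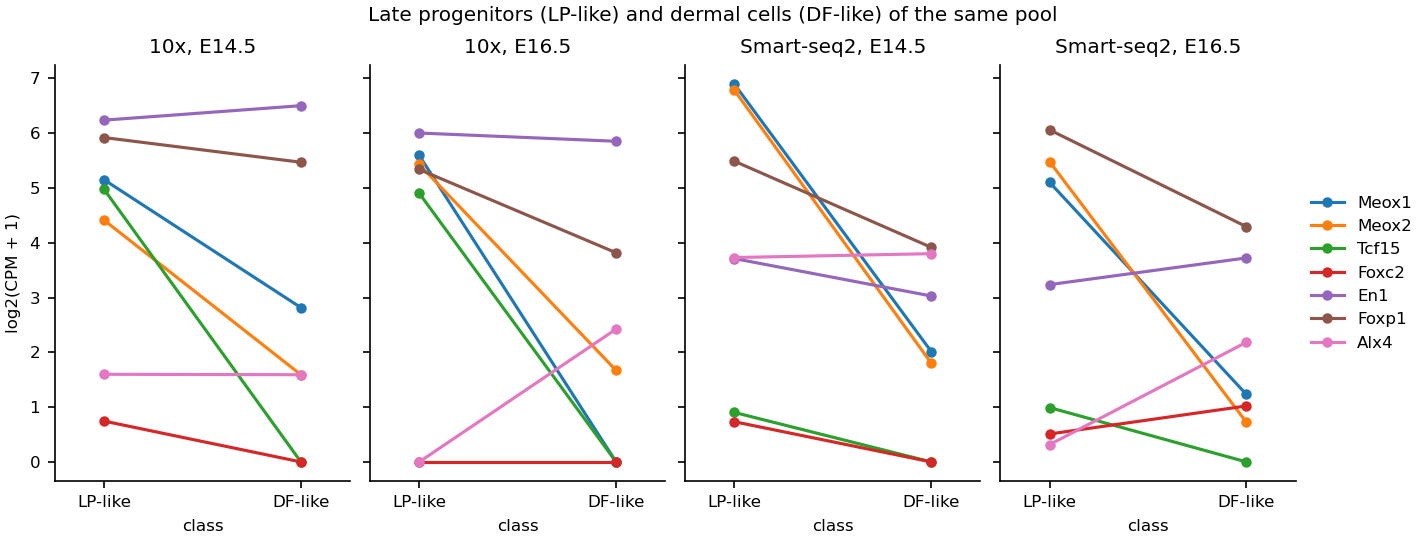
CPM of 7 members in LP-like and DF-like cells of the same pool, 1 line per pool, over the 4 pools of E14.5 and E16.5. Lines of Meox1, Meox2, Tcf15 and Foxp1 fall in every pool, and those of En1 rise in 2 pools and fall in 2.

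Brown adipocyte-like cells of E16.5 in 10x were compared with LP-like cells of the same library, a comparison of 1 library that has no replicate. No UMI of Meox1, Tcf15 or En1 was found in BA-like cells, which allows up to 5.95 CPM each, and LP-like cells were at least 4.71-fold higher in Meox1, at least 2.43-fold in Tcf15 and at least 6.80-fold in En1. Meox2 was counted once in BA-like cells and 16 times in LP-like cells, which is a log2 ratio of -4.45 with a counting interval from -9.84 to -1.76. Foxp1 was at 13.9 CPM (5.58 to 28.6) in BA-like cells, with 7 UMIs against 15 and a log2 ratio of -1.55 (-3.08 to -0.17). In Smart-seq2, 1 plate had at least 8 BA-like cells, with En1 at 2.34, Foxp1 at 7.93 and Meox1, Meox2 and Tcf15 at 0 CPM.

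PE-like cells held the highest Meox2 of any class, 58.96 CPM (23.7 to 121.5) in 13 10x cells of E14.5 and 322.5 CPM in 15 Smart-seq2 cells of E16.5, of which 12 had a count. The 10x sum of E16.5 had 1 UMI in 30 cells. Pericytes are contractile cells around small vessels, and these cells were too few to enter a test.

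Cells with both paralogs were found in progenitors and in early muscle, and no test was made of whether the 2 genes were counted together more often than apart. In Smart-seq2 LP-like cells of E14.5, 25 of 45 had Meox1 and 28 had Meox2, of which 17 had both and 9 had neither. At E16.5, 17 of 62 had Meox1, 30 had Meox2, 8 both and 23 neither. All 3 E12.5 EM-like cells with Meox2 also had Meox1. Per kilobase of all annotated exons, Smart-seq2 LP-like cells of E14.5 had Meox1 at 52.97 and Meox2 at 46.3 CPM per kb, so both paralogs were of like level there. In E12.5 EM-like cells Meox1 led all members by that Smart-seq2 measure, at 30.03 CPM per kb. It did not lead in 10x, where En1 (104.3 CPM) and Tcf15 (65.2 CPM) were above Meox1 (32.6 CPM) in these cells.

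In 10x Tcf15 was highest in cluster 11 and in EP-like cells, and the 2 platforms were far apart in level. In 10x it was at 123.9 CPM (95.4 to 158.2) in EP-like cells and, by day, 30.5 CPM (22.2 to 40.8) and 28.9 CPM (14.4 to 51.8) in LP-like cells. EM-like cells had 65.2 CPM (43.98 to 93.1), 18.4 CPM (12.7 to 25.9) and 0 CPM by day. In Smart-seq2 the same sums were 4.14, 0.870 and 0.990 CPM in progenitors and 14.49, 2.28 and 0 CPM in EM-like cells, and single cells gave 57.9% of the EP-like and 58.04% of the E12.5 EM-like counts. The 10x sums of E12.5 and E14.5 had intervals that did not overlap within either class, and in EM-like cells E12.5 was at least 4.01-fold above E16.5.

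Tcf15 was lower in LP-like than in EP-like sums by -1.70 ± 0.38 on the log2 scale (adjusted p = 0.0313 by the edgeR quasi-likelihood test, Benjamini-Hochberg adjusted). It passed in 11 of 18 alternatives, and counting cluster 11 among the LP-like cells ended the call (-0.81, adjusted p = 0.271 by edgeR). Cluster 11 held the highest 10x level of Tcf15, with an interval that overlaps that of EP-like cells, 137.8 CPM (110.7 to 169.6) at E14.5, with a UMI in 46.4% of its 110 cells. In EM-like cells by day the fall of -2.89 ± 0.94 did not pass (adjusted p = 0.106 by edgeR), but did with the E14.5 or the E16.5 sum of Smart-seq2 left out (0.0137 and 0.00500).

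No count of Tcf15 was found in DF-like cells, on either platform at either day, which in 10x allows up to 3.02 and 6.55 CPM. Smart-seq2 held 49 and 74 such cells. LP-like cells were at least 7.35-fold higher at E14.5 and at least 2.20-fold higher at E16.5 on 10x counts, and cluster 11 at least 36.6-fold higher at E14.5. The difference between DF-like and LP-like sums passed (adjusted p = 0.00221 by the edgeR quasi-likelihood test, Benjamini-Hochberg adjusted, lower in 4 of 4 pools), and was lost on Smart-seq2 sums alone (adjusted p = 0.191 by edgeR), where LP-like cells had 2 and 4 cells with a count. Tcf15 UMIs were also present in N-like cells, at 31.5 CPM (23.3 to 41.7) at E12.5, where 10.5% of cells had a UMI, so the lower progenitor and muscle levels are not above those of neurons.

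Foxc1 and Foxc2 were near the limit of detection in most sums. Foxc1 had 23 UMIs over the 16 10x sums of at least 20 cells, 10 of them in EM-like cells of E14.5 (5.58 CPM, 2.68 to 10.3). Its Smart-seq2 sums stayed at or below 3.26 CPM, with the highest plate of E12.5 EM-like cells at 15.5 CPM. The share of E12.5 N-like cells with Foxc1 was 22.4%, and 2.38% after thinning, so that share follows depth. Foxc2 had 4 UMIs over the same sums, and in Smart-seq2 its 5.62 CPM in E12.5 EM-like cells came from 1 cell. The exception was PE-like cells, in which 7 of 15 Smart-seq2 cells had Foxc2 (26.9 CPM). Foxc1 was tested in 4 and Foxc2 in 3 of the 6 comparisons, and neither passed in any, at a depth that could not show a change of a few CPM.

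En1 was spread over progenitors, early muscle and dermis, and in 10x its level in early muscle differed by day. In 10x it was at 94.9 CPM (70.2 to 125.4) among EP-like cells. LP-like sums followed by day with 74.5 and 63.1 CPM, and DF-like sums with 89.6 and 56.8 CPM, while the level was 104.3 CPM (76.9 to 138.3) in E12.5 EM-like cells. Neighbouring values in this order had overlapping intervals. EM-like cells were at 54.7 CPM (44.4 to 66.7) at E14.5 and 14.6 CPM (3.98 to 37.4) at E16.5 in 10x, with intervals of the 3 days that did not overlap, but in Smart-seq2 they were at 10.1, 9.71 and 7.42 CPM, and the difference by day did not pass (-0.49 ± 0.43, adjusted p = 0.627 by edgeR).

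Between LM-like and EM-like cells En1 was the member that changed. LM-like sums were at 43.5, 13.2 and 13.5 CPM in 10x by day, with 5, 8 and 1 UMIs, and at 2.78 and 0.535 CPM in Smart-seq2 at E14.5 and E16.5. Each was below the EM-like sum of its own pool. The difference was -2.01 ± 0.44 on the log2 scale (5 pools, adjusted p = 0.00129 by the edgeR quasi-likelihood test, Benjamini-Hochberg adjusted), and it passed in 12 of 12 alternatives. With Foxp1, which did not pass, 2 members had enough counts to be tested, and 26.2% of 8072 genes passed, 13.5% being higher in EM-like and 12.7% in LM-like cells, so 1 of 2 is not a share to compare with that background.

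Between DF-like and LP-like cells En1 differed by -0.03 ± 0.24 on the log2 scale (adjusted p = 0.967 by the edgeR quasi-likelihood test, Benjamini-Hochberg adjusted), higher in 2 pools and lower in 2. Its sign was kept in 9 of 16 alternatives, which ran from -0.23 to 0.71. Differences of that size in either direction are not excluded by these sums. In Smart-seq2, En1 was counted in 51.02% and 54.1% of DF-like cells and in 60% and 43.5% of LP-like cells by day, and after thinning in 34.7% and 35.6% against 40% and 29.5%.

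Lbx1 was a gene of neurons in these data, with a low level in early muscle. N-like cells had 108.1 CPM (92.3 to 125.7) at E12.5 and 144.02 CPM (104.6 to 193.3) at E14.5 in 10x, and 15.3 and 24.8 CPM in Smart-seq2, where 44.7% and 35.8% of cells had a count. EM-like cells had 10.9 CPM (3.53 to 25.4), 7.26 CPM (3.86 to 12.4) and 18.3 CPM (5.94 to 42.7) by day in 10x, from 5, 13 and 5 UMIs, and 0.0914, 1.28 and 1.19 CPM in Smart-seq2. Progenitor sums were at 3.87, 1.35 and 0 CPM in 10x and at 0.0623, 0 and 0 CPM in Smart-seq2, each below the EM-like sum of its pool. The E12.5 Smart-seq2 sums were both near 0, the EP-like one being 4 counts from 1 cell, so that pool shows no clear difference. Medians over the Smart-seq2 plates of EM-like cells were 0, 0 and 0.498 CPM by day.

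Lbx1 differed between EM-like and progenitor-like sums by 3.75 ± 1.23 on the log2 scale (adjusted p = 0.0474 by the edgeR quasi-likelihood test, Benjamini-Hochberg adjusted). It was higher in EM-like cells in 6 of 6 pools, though the E12.5 Smart-seq2 pool was near 0 in both classes. The call was lost in 6 of 13 alternatives, including the fit with no filter on low counts (adjusted p = 0.0668 by edgeR) and that without cluster 5 and so without progenitors of E14.5 (0.285), and the direction held in 13 of 13. The N-like markers summed to 254.2, 78.1 and 80.4 CPM by day in EM-like 10x cells and to 251.7 CPM in EP-like cells, and their part in the Lbx1 level was not tested.

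Alx4 was concentrated in early progenitors, on Smart-seq2 above all. EP-like cells had 167.3 CPM in Smart-seq2, with 7 plates from 67.1 through 247.6 to 336.3 CPM, and Alx4 was counted in 74.8% of these cells (66.01 to 82.3%), or 71.1% after thinning. LP-like cells had 12.3 CPM at E14.5 and 0.245 CPM at E16.5, all plates lying below those of EP-like cells. In 10x the EP-like level was 19.4 CPM (9.28 to 35.6, 10 UMIs), against 2.03 CPM (3 UMIs) and 0 CPM in LP-like cells, and at least 1.18-fold higher than at E16.5. Per kilobase of all annotated exons, Alx4 led the members in Smart-seq2 EP-like cells at 23.7 CPM per kb, ahead of Foxp1 at 14.8 and Meox1 at 9.32. That order depends on the exon length used, and before division by length Foxp1 was higher, at 203.1 CPM. In 10x EP-like cells Foxp1 (172.3 CPM), Tcf15 (123.9 CPM) and En1 (94.9 CPM) were all above Alx4.

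The test of LP-like against EP-like sums gave -4.27 ± 1.06 on the log2 scale for Alx4 (adjusted p = 0.0484 by the edgeR quasi-likelihood test, Benjamini-Hochberg adjusted), and it passed in 9 of 17 alternatives with the direction held in 17. In DF-like cells Alx4 was at 12.9 and 3.55 CPM in Smart-seq2 by day and the difference from LP-like sums did not pass (1.59 ± 0.98, adjusted p = 0.363 by edgeR). N-like cells of E12.5 had Alx4 in 37.6% of cells at 0.635 CPM, and in 3.57% after thinning, while 19 of 45 LP-like cells of E14.5 had it at 12.3 CPM, so an unthinned share alone does not separate these levels. Within EP-like cells, 49 of the 51 with En1 also had Alx4.

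Foxp1 was found in every class. In 10x it was at 172.3 CPM (138.4 to 212.03) in EP-like, 143.4 CPM (110.9 to 182.5) in EM-like, 148.04 CPM in LM-like and 192.3 CPM (171.1 to 215.4) in N-like cells of E12.5, with overlapping intervals. At E14.5 and E16.5 it was at 59.6 and 39.5 CPM in LP-like, 99.3 and 76.8 CPM in EM-like, 43.3 and 13.1 CPM in DF-like cells. Smart-seq2 gave 203.1 CPM for EP-like, 43.9 and 65.8 CPM for LP-like, 117.6, 48.7 and 119.3 CPM for EM-like and 14.1 and 18.6 CPM for DF-like cells.

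Foxp1 was lower in DF-like sums than in those of LP-like cells, by -1.41 ± 0.27 on the log2 scale (adjusted p = 0.00499 by the edgeR quasi-likelihood test, Benjamini-Hochberg adjusted), in 4 of 4 pools, with means of 23.1 and 54.1 CPM. It passed in 14 of 16 alternatives and was lost within either platform alone (adjusted p = 0.207 in 10x and 0.0904 in Smart-seq2 by edgeR). LP-like sums were below both EP-like sums, 41.4 to 67.4 against 180.3 and 210.5 CPM, but the difference of -1.41 ± 0.37 did not pass (adjusted p = 0.0605 by edgeR) and passed in 7 of 18 alternatives. Neither muscle against progenitors (0.26 ± 0.23, adjusted p = 0.461 by edgeR) nor late against early muscle (-0.22 ± 0.22, adjusted p = 0.519 by edgeR) separated Foxp1.

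**Figure D5:**
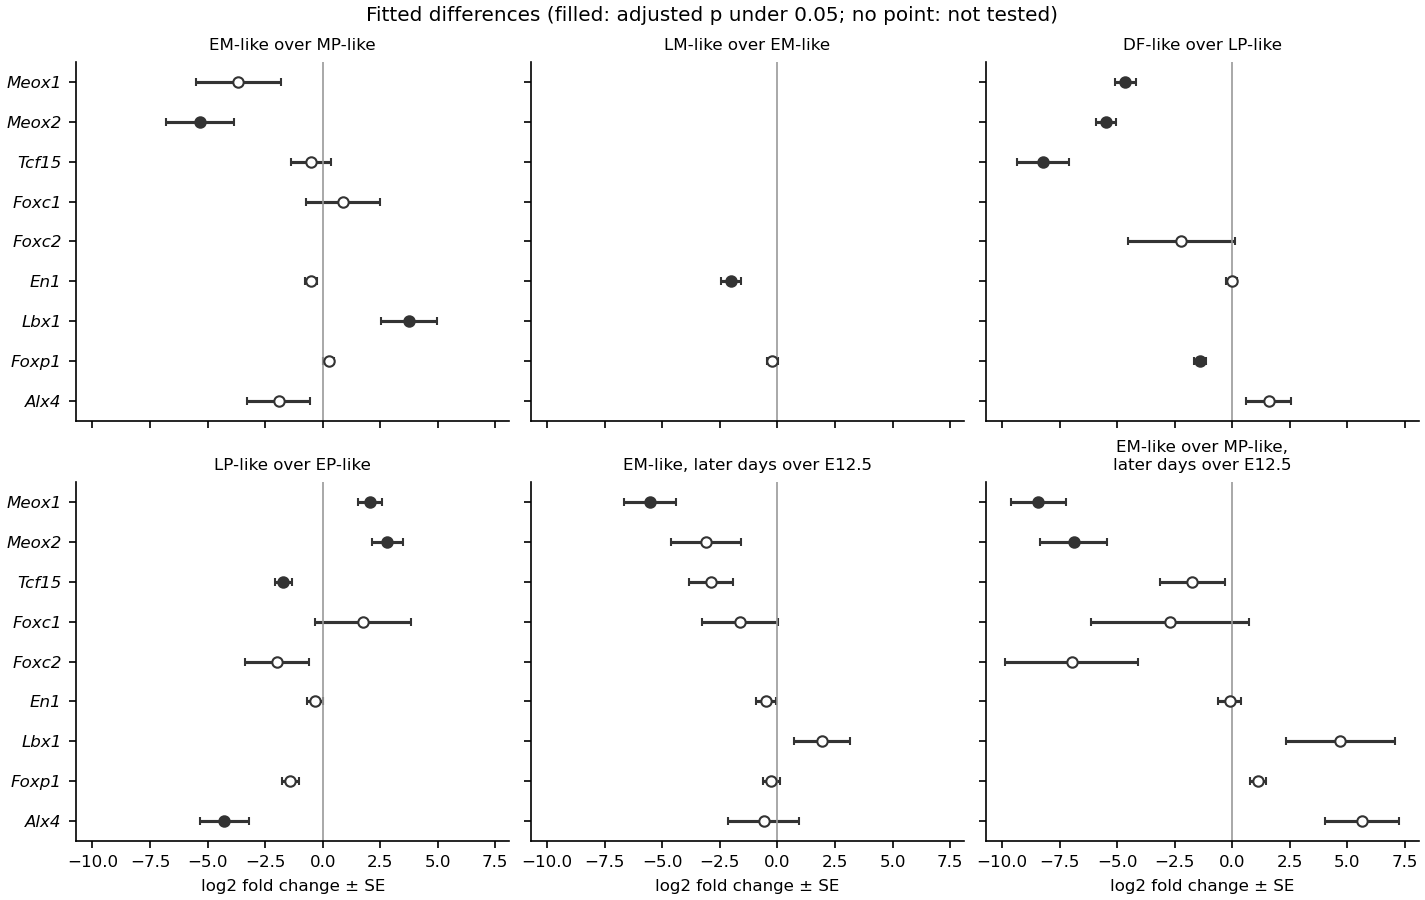
Log2 fold changes with standard errors of the tested members in 6 comparisons, filled where the adjusted p by edgeR was under 0.05. The filled points are Meox2 and Lbx1 for muscle against progenitors, En1 for late against early muscle, Meox1, Meox2, Tcf15 and Foxp1 for dermal against late progenitor cells, Meox1, Meox2, Tcf15 and Alx4 for late against early progenitors, and Meox1 in muscle by day and Meox1 with Meox2 in the difference by day. The point of Tcf15 in dermal cells is no size, since all its dermal sums are 0.

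Counting how many of the 9 genes a single Smart-seq2 cell held, at 100000 counts, gave a mean of 2.61 in EM-like cells of E12.5 against 1.11 at both later days. EP-like cells held 2.18, LP-like cells 2.38 at E14.5 and 1.70 at E16.5, DF-like cells 0.857 and 0.767, and BA-like cells 0.5, from only 14 cells. PE-like cells held 2.07 and N-like cells 0.929 and 0.699. In 10x, at 1000 UMIs, the means were 0.402 in EP-like cells, 0.234 and 0.201 in LP-like cells and 0.312, 0.143 and 0.0797 in EM-like cells by day, against 0.158 and 0.0657 in DF-like and 0.0191 in BA-like cells. Progenitor means were above the dermal means of the same day on both platforms, while the EM-like mean of E14.5 was above the dermal mean in Smart-seq2 and below it in 10x. These are means over cells that share a library, and no test was made.

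Across the 29 class sums of both platforms, which share libraries and differ in depth, Meox1 and Meox2 had a Pearson correlation of 0.70 on log2 CPM, Meox1 and Tcf15 0.61, Meox1 and En1 0.56, and En1 and Alx4 0.54. The genes most like each member by the same measure, among 9436 genes, were Angptl1, Igfbp4 and Sfrp1 for Meox1 (0.80, 0.80 and 0.79), Pear1, Eps8 and Piezo2 for Meox2 (0.88, 0.88 and 0.87), Aprt, Mdk and Pcdh18 for En1 (0.79, 0.79 and 0.76) and Pax7, Six2 and Pax3 for Foxp1 (0.75, 0.73 and 0.72). Of the members with a mean under 5 CPM on either platform, Tcf15 was like Zfhx3 (0.77) and Ankrd11 (0.75), Lbx1 most like Hoxb8 (0.91) and Dcx (0.91), and Alx4 most like Hunk (0.76). These values describe the sums and carry no test.

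The members were read beside other genes of the same tissues. Of 14 dermomyotome and muscle precursor genes tested between EM-like and progenitor-like sums, 8 were higher and 0 lower in EM-like cells, with a median of 2.24 on the log2 scale against -0.09 for all genes, among them Msc (MyoR), a repressor of muscle differentiation, at 9.40 ± 0.91 (adjusted p = 0.000187 by edgeR). Pax7 also passed but was used to name the class. Over all genes 10.8% were higher in EM-like cells and 14.9% in the progenitors. All 7 tested dermal and mesenchymal factors were lower in EM-like cells, for example Osr1, a factor of connective tissue, at -4.76 ± 0.66 (adjusted p = 0.000981 by edgeR), and 2 of 3 tested segmentation genes, Lfng and Dll1 of the Notch pathway, were higher. Of 6 sclerotome and tendon genes 2 were lower, with Sox9 of cartilage progenitors at -1.57 ± 0.24 (adjusted p = 0.00176 by edgeR). Both tested paralogs of the members, Foxp2 (-0.80) and Foxp4 (-1.03), were lower.

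Where Meox1 and Meox2 dropped in dermal cells, 3 of 12 tested dermomyotome genes also were lower, among them Eya1 and Dmrt2, and none was higher, where 6.36% of all genes were lower and 5.34% higher in DF-like cells. Twist1, which acts with Twist2 in the dermis, was higher in DF-like cells by 1.74 ± 0.24 (adjusted p = 0.000671 by edgeR) and Foxd1 by 3.74, among 5 of 8 dermal and mesenchymal factors that were higher with 0 lower, 1 of which, Twist2, was used to name the class. Of 7 sclerotome and tendon genes 3 were lower, Sox9 by -4.29 ± 0.30 (adjusted p = 6.0e-06 by edgeR), Scx and Pax9, and Tbx18 was higher. Scx is also a tendon marker and took part in the clustering, so its difference is not independent of the classes. LP-like cells of E14.5 came mostly from the tendon-rich cluster 5. No segmentation gene of 4 and no paralog of 2 passed.

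The tests by day rest on few sums, so a listed gene that did not pass may still have moved. Between LP-like and EP-like sums Alx1, the paralog of Alx4, was lower by -9.20 ± 0.97 (adjusted p = 0.00120 by edgeR), with a mean of 0.287 CPM against 201.3 CPM, and Osr2 was higher by 2.45 ± 0.50 (adjusted p = 0.0211 by edgeR). None of the 14 dermomyotome genes passed there by edgeR, where 3.90% of all genes did. Their median was -1.07 on the log2 scale, beside 0.09 for all genes tested. The other lists had medians of -2.30 (paralogs), -0.87 (dermal and mesenchymal), -0.06 (sclerotome and tendon) and 0.55 (segmentation). In EM-like cells by day, 3 of the 14 were lower at E14.5 and E16.5, beside 1.33% of all genes, the dermomyotome factor Pax3 by -2.59 ± 0.48 (adjusted p = 0.00495 by edgeR) and Zic1 among them, along with Foxp4 and Twist1. Between LM-like and EM-like sums Msc was lower by -3.07 ± 0.34 (adjusted p = 3.7e-07 by edgeR). In the difference by day between muscle and progenitors only Alx1 and Pax7 of the listed genes passed beside Meox1 and Meox2, both with the opposite sign.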

How the data were processed

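10x counts are UMIs per gene and cell as deposited. The authors made them with Cell Ranger on mm10 and filtered cells before deposit. Smart-seq2 values are estimated counts from kallisto 0.44.0, summarised per gene by the authors, and were rounded after summing. Bulk values are deposited counts per gene, and their counting tool is not given in the sources used here. Of the 18 bulk columns, 16 could not be matched to 1 sample, so the planned bulk tests were not run and the 2 sorted Cd36+ libraries are given as values.

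The members and lists were chosen with earlier results of these data known. Cells with over 8% mitochondrial counts were removed (51 of the 64 removed cells were E16.5 Smart-seq2 cells), and limits of 15000 UMIs and 4000 genes removed none. BA-like Smart-seq2 cells of E16.5 numbered 14 among the kept cells and 60 when all deposited cells were clustered. Cells were clustered with Seurat 5.3.0 (2000 variable genes, 30 components, resolution 0.8, R 4.3.3) without 48 genes, the members and the listed genes other than markers. The resulting 17 clusters were named by the highest mean marker score, at least 0.8 with 3 or more markers detected, or as mesenchymal progenitors by Pdgfra and 3 other markers in over 50% of Smart-seq2 cells. This rule was revised after the clusters were seen, and cluster 11 was set aside then. In 10x, Scrublet called 8, 8 and 7 doublets by day, which were kept.

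For each class with at least 20 cells in a pool (1 platform on 1 day), counts were added up over the 15147 genes that both single-cell tables hold and tested with the edgeR 4.0.16 quasi-likelihood test (filterByExpr, TMM, adjusted p threshold 0.05), checked on simulated data. Comparisons of classes had the pool as a term, and those by day had the platform. Levels in the text are over all counts of the cells unless the shared genes are named. Alternatives were 2 other resolutions, all genes in the clustering, all deposited cells, doublets removed, DESeq2 1.42.0, its size factors in edgeR, no filter on low counts, day as a linear term for the difference by day, and each pool left out. Added after seeing the data were cluster 5 left out, cluster 11 counted as LP-like and each platform alone.

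Besides the members, always named, up to 3 passing genes per list and direction with the largest fold were named, and for likeness the 3 genes with the highest correlation of log2(CPM + 1), centred within platform, among genes with a mean of at least 5 CPM on each. Values were computed with Python 3.11.15 and scipy 1.17.1, and promoters were read from RefSeq, which held 4 of the 9 members. Some genes that the rule names are not reported here. Loci are those of GENCODE on GRCm38.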

Additional observations from a re-analysis of the deposited data

Results flagged for a closer look

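Foxp1 in EP-like Smart-seq2 cells of E12.5 had 1 plate far from the others, at 383.7 CPM with the next of the 7 plates at 221.1 CPM, the gap being 0.613 of the whole range. It was 1 of 20 groups of plates looked at, and chance gives about 1 in 20.

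The difference between EM-like and mesenchymal progenitor-like cells was not the same at E12.5 and at the later days for 2 members, by the edgeR quasi-likelihood test, Benjamini-Hochberg adjusted. Meox1 moved by -8.42 on the log2 scale (adjusted p = 0.00161) and Meox2 by -6.88 (adjusted p = 0.0195). In all 4 later pools Meox1 was lower in EM-like cells, and in both E12.5 pools it was higher.

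Sorted Pdgfra-/Cd36+ bulk libraries of E16.5 entered no comparison. By the study's methods such sorted libraries were technical duplicates, so they are 1 sample measured again, and their values stand here as libraries 1 and 2, with totals of 24862787 and 32947290 counts. They differed by more than sampling noise. The standardized difference between them had a variance of 41.1 over 15766 genes, where sampling noise alone gives 1. They held the fat genes Cd36 at 1510 and 1262 CPM and Fabp4 at 4576 and 3935 CPM, the gate's excluded Pdgfra at 6.03 and 8.41 CPM and the endothelial gene Pecam1 at 79.1 and 104.8 CPM. In this bulk RNA, fewer cells of a type and less RNA per cell cannot be told apart. Foxp1 was the highest member, at 19.5 and 26.2 CPM. Meox1 was at 1.29 and 0.880 CPM and Meox2 at 1.85 and 1.79 CPM. En1 was at 0.442 and 0.637 CPM, Alx4 at 0.563 and 0.880 CPM, and Foxc1 at 0.241 and 0.364 CPM. Foxc2 had no count in either library. The order of Foxp1 before Meox2 and Meox1 was the same in both libraries of this sample, though levels of different genes here are not per length.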

How the results depend on the processing

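Of the values of members under the alternatives listed in the methods, 86.7% of 420 kept their direction and side of the threshold, 40 lost and 10 gained the call, and 6 changed sign. Under alternatives added later 78.5% kept both, 22 lost and 5 gained the call, and 8 changed sign. No value that changed sign passed the test. En1 in dermal against late progenitor cells (-0.03 on the log2 scale) went to 0.0337 at resolution 0.4, 0.10 with all genes in the clustering, 0.00290 without 10x E16.5, 0.31 without Smart-seq2 E14.5 (lowest over single pools -0.23), 0.0693 with cluster 11 counted as LP-like, 0.71 without cluster 5 and 0.14 on 10x sums. En1 in the difference by day (-0.11) went to 0.38 without 10x E12.5 (lowest -0.76), 0.10 without 10x E16.5 and 0.57 on Smart-seq2 sums. Tcf15 in muscle against progenitors (-0.51) went to 0.24 without Smart-seq2 E16.5 (lowest -0.97) and 0.14 on Smart-seq2 sums, and Alx4 in muscle by day (-0.60) to 0.42 without 10x E12.5 (lowest -0.54) and 0.41 on Smart-seq2 sums. Genes past the threshold are given as a percent of those tested by edgeR unless another tool is named. Muscle against progenitors had 25.7%, and 2.93% without cluster 5, 30.06% on 10x sums and 0.515% on Smart-seq2 sums, with 13.4% (without 10x E14.5) to 41.1% (without Smart-seq2 E12.5) when single pools were left out. Late against early muscle had 26.2%, and 15.98% with no filter on low counts and 21.4% on 10x sums, with 17.3% to 25.1% over single pools. Dermal against late progenitor cells had 11.7%, and 11.3% on 10x and 1.69% on Smart-seq2 sums, with 6.41% (without 10x E14.5) to 17.6% (without Smart-seq2 E14.5). Late against early progenitors had 3.90%, and 8.99% with DESeq2, 16.6% without cluster 5, 2.12% on 10x sums and 0% on Smart-seq2 sums, where 9.29% had an unadjusted p under 0.05, with 0% (without Smart-seq2 E12.5, 5.11% unadjusted) to 13.2% (without Smart-seq2 E14.5). Muscle by day had 3.37%, and 0.448% at resolution 1.2, 5.37% with DESeq2, 2.10% with no filter, 1.27% on 10x sums and 0% on Smart-seq2 sums (10.4% unadjusted), with 0% (without Smart-seq2 E12.5, 4.15% unadjusted) to 8.19% (without Smart-seq2 E14.5). The difference by day had 3.63%, and 1.95% on 10x and 0% on Smart-seq2 sums (11.7% unadjusted), with 0.00834% (1 gene, without Smart-seq2 E12.5) to 10.5% (without Smart-seq2 E14.5). Without a pool of E12.5, the lone other sum of that day is assumed to vary like the rest, fits on 1 platform have fewer sums, fits without cluster 5 hold no LP-like sum of E14.5, and muscle by day at resolution 1.2 lacks the 10x sum of E16.5. The cause of the other shifts was not tested. DESeq2 moved the median log2 change of all genes from 0.09 to -0.02 in late against early progenitors, from 0.10 to -0.04 in muscle by day and from 0.07 to -0.04 in late against early muscle. After thinning, the share of cells with Foxc1 among N-like cells of E12.5 moved from 22.4% to 2.38% and that of En1 among LP-like cells of E14.5 from 60% to 40%.

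No paired analysis was possible because the bulk columns that carry replicate numbers could not be matched to samples, and the numbers of single cells only name them. Classes of cells from the same pool were compared with the pool as a term, as the methods say. The planned bulk alternatives were not run for the same reason. The labels do not say that plates or libraries are separate animals, class names were rebuilt from markers, each 10x day is 1 library, and Foxc1, Foxc2, Lbx1 and 10x Meox1 in muscle rest on few UMIs.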
